A study of Rattus norvegicus with 12 samples.

Results

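The genes described here make cholesterol and fatty acids, or control the enzymes that do. They were chosen by gene symbol: 35 symbols were listed, and every probe set whose annotation gave exactly 1 of them was taken. A total of 34 of the 35 were measured, by 57 probe sets, among 14217 genes measured by probe sets with 1 symbol. They comprised 18 genes of the sterol branch, 5 regulators and 11 genes of the fatty acid branch. Hmgcs1, an early enzyme of the sterol branch, had no probe set annotated with that symbol alone and was not analysed here. There were 15 members with 1 probe set and 19 with several, and each gene's value is the mean over its probe sets.

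RNA came from the right tibia of female Sprague-Dawley rats killed at postnatal day 34, before puberty, after the marrow had been aspirated. The SPI group ate a diet with soy protein isolate as its protein. The E2 group ate the casein diet and received 17 beta estradiol at 10 µg/kg/d from a pump implanted under the skin, and the SPI+E2 group had the soy diet and the estradiol together. The CAS group, the control, ate the casein diet alone, and all 4 groups came from dams fed casein. Treatment lasted 14 days and began at weaning, on postnatal day 21 by the labels and on day 20 by the methods. Each group has 3 arrays, and each array carries a pool of RNA from 2 to 3 rats, so n counts pools, and the spread between arrays is that between pools.

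Cells build cholesterol from acetyl-CoA through mevalonate, isoprenoids, squalene and lanosterol, and fatty acids from acetyl-CoA and NADPH through malonyl-CoA. Transcription factors called SREBPs switch on both sets of genes, SREBP2 (encoded by Srebf2) mainly the sterol enzymes and the SREBP1c form of Srebf1 mainly the fatty acid enzymes. When sterols are plentiful, Insig proteins hold Scap, and with it the SREBPs, in the endoplasmic reticulum. In rodents these enzymes are most studied in liver and fat, and bone tissue holds many cell types that also use them.

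The deposited values are log2 values centred on each probe set's median over the 12 arrays. They therefore carry differences between arrays and no absolute level, so genes cannot be ranked by abundance and the labelled tissue cannot be checked by marker levels. The logarithm's base comes from the methods, since the file does not give it. Array medians lay between -0.00416 and 0.00721. Array 1 of SPI stood apart, with an SD over all probe sets of 0.211 against 0.128 to 0.164 in the other arrays. In bone RNA, fewer cells of a type and less RNA per cell cannot be told apart.

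Many sterol branch genes were higher than in CAS under SPI alone and under E2 alone, but not under their combination. In SPI, 12 of the 18 sterol genes were higher than in CAS, 0 were lower and 6 did not pass, at a limma p adjusted over all genes under 0.05. Over all 14217 genes, 25.4% passed in this comparison, and 10.7% of all genes were called higher. In E2, 9 of 18 were higher and 0 lower, against 14.2% of all genes called and 6.98% higher. In SPI+E2, 0 were higher and 3 were lower, against 12.9% called and 7.06% lower. The median log2 difference from CAS over the 18 genes was 0.20 under SPI, 0.20 under E2 and -0.11 under SPI+E2, beside -0.01, -0.01 and 0.00 over all genes. In SPI+E2, 17 of the 18 differences were negative, beside 6845 of the 14217 over all genes. Over all 4 groups, limma's F test found a difference in 14 of the 18 sterol genes, 1 of the 5 regulators and 8 of the 11 fatty acid genes, against 35% of all genes. The arrays of the group and of CAS did not overlap for 13 of 18 sterol genes under SPI, 10 under E2 and 8 under SPI+E2, against 40%, 34.5% and 34.3% of all genes. With each array left out in turn, the genes higher in SPI numbered 8 to 12, with 8 without any 1 CAS array or SPI array 2, and 11 without array 1 of SPI. Those higher in E2 numbered 6 to 10, with 6 without CAS array 2 or E2 array 1 or 3. Those lower in SPI+E2 numbered 2 to 6, with 2 without CAS array 1 or SPI+E2 array 1 or 2, 5 without SPI array 1 or SPI+E2 array 3, and 6 without SPI array 3.

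Msmo1, which oxidises the methyl groups of sterols after lanosterol, had the largest difference of the sterol branch between E2 and CAS. Its values by array were 0.10, 0.35 and 0.37 in SPI, 0.23, 0.22 and 0.25 in E2, -0.36, -0.33 and -0.31 in SPI+E2 and -0.16, -0.14 and -0.10 in CAS. All SPI and E2 arrays were above all CAS arrays, all SPI+E2 arrays were below them, and array 1 of SPI was the lowest of its group. The difference from CAS was 0.41 ± 0.06 (SE) in SPI (adjusted p = 0.000548) and 0.37 ± 0.06 in E2 (adjusted p = 0.00138). In SPI+E2 it was -0.20 ± 0.06, which missed the threshold (adjusted p = 0.0524).

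Tm7sf2, a sterol reductase that acts on the product of Cyp51, had the largest difference of the branch with SPI, 1.40-fold. Its array values were 0.38, 0.31 and 0.26 in SPI, 0.12, 0.06 and 0.10 in E2, -0.20, -0.24 and -0.09 in SPI+E2 and -0.06, -0.24 and -0.19 in CAS. The SPI arrays were the highest, the E2 arrays came next, and the SPI+E2 arrays overlapped the CAS arrays. The log2 difference from CAS was 0.48 ± 0.06 under SPI (adjusted p = 8.29e-05), 0.26 ± 0.06 under E2 (adjusted p = 0.00798) and -0.01 ± 0.06 under SPI+E2 (adjusted p = 0.922). Tm7sf2 was also higher in SPI than in E2, by 0.22 ± 0.06 (adjusted p = 0.013).

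Sc5d encodes a sterol desaturase near the end of the pathway. Its values were 0.23, 0.34 and 0.30 in SPI, 0.23, 0.10 and 0.18 in E2, -0.26, -0.37 and -0.19 in SPI+E2 and -0.08, -0.12 and -0.11 in CAS. No SPI, E2 or SPI+E2 array overlapped the CAS arrays, the first 2 groups lying above them and the combination below. The differences from CAS were 0.40 ± 0.05 under SPI (adjusted p = 0.000251) and 0.27 ± 0.05 under E2 (adjusted p = 0.00421), and -0.17 ± 0.05 under SPI+E2, which did not pass (adjusted p = 0.061).

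Sqle, squalene epoxidase, carries out the first oxygen-requiring step. It gave 0.23, 0.33 and 0.14 in SPI, 0.12, 0.08 and 0.22 in E2, -0.40, -0.29 and -0.38 in SPI+E2 and -0.08, -0.24 and -0.15 in CAS. The order was the same, with SPI and E2 above CAS and SPI+E2 below it. The differences were 0.39 ± 0.06 under SPI (adjusted p = 0.000669), 0.30 ± 0.06 under E2 (adjusted p = 0.00575) and -0.20 ± 0.06 under SPI+E2 (adjusted p = 0.0511). The last missed the threshold, although the arrays of SPI+E2 and CAS did not overlap.

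**Figure D1:**
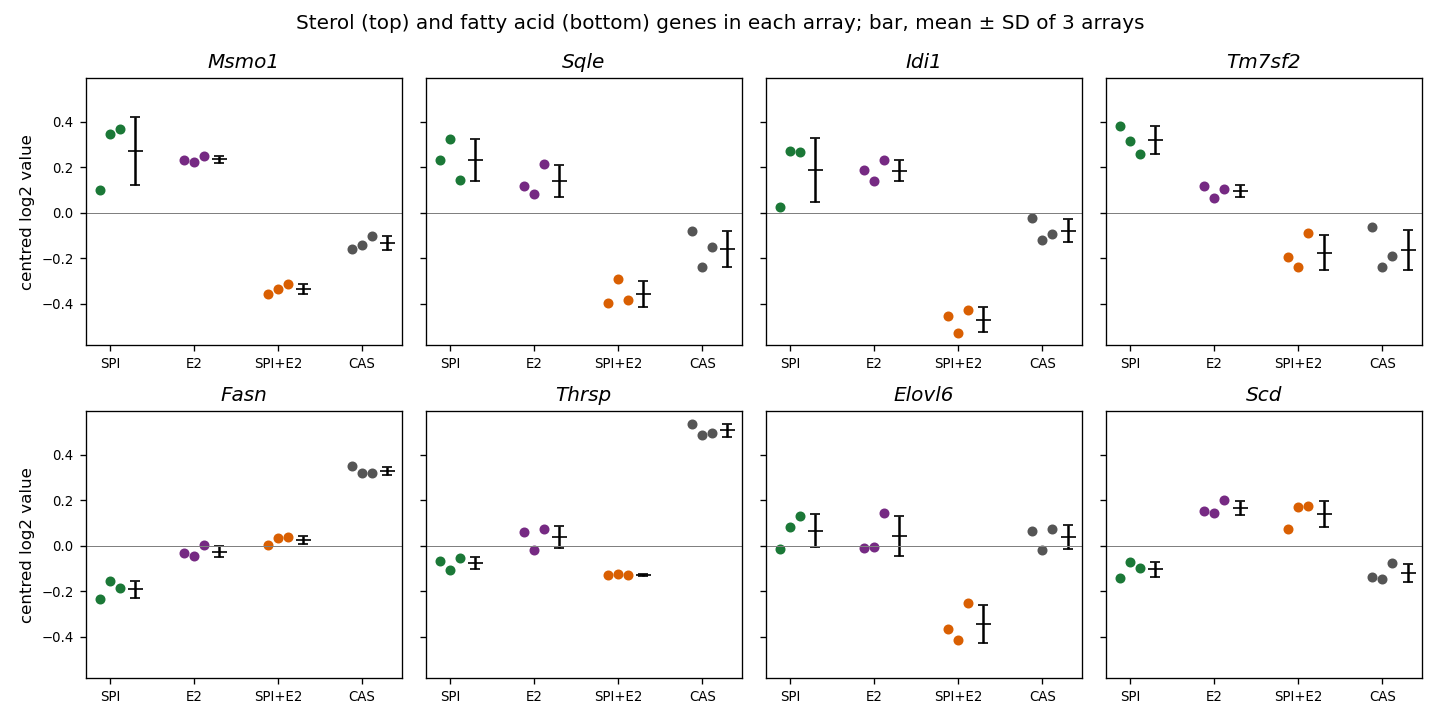
Values of 4 sterol genes (top row) and 4 fatty acid genes (bottom row) in every array, as log2 values centred on each probe set's median, by group on the x axis; points are arrays and the bars give the mean ± SD of 3 arrays. Msmo1, Sqle and Idi1 lie above CAS in SPI and E2 and below it in SPI+E2, while Fasn and Thrsp lie below CAS in all 3 groups.

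Acat2, at the head of the pathway, joins units of acetyl-CoA. Its values were 0.03, 0.33 and 0.37 in SPI, 0.28, 0.24 and 0.34 in E2, -0.45, -0.35 and -0.15 in SPI+E2 and -0.04, -0.05 and -0.03 in CAS. Array 1 of SPI was again the lowest of its group, and the SPI+E2 arrays were spread more widely than the 3 CAS arrays. E2 raised it by 0.33 ± 0.09 (adjusted p = 0.0315) and SPI by 0.29 ± 0.09 (adjusted p = 0.0378). Both calls were lost when any 1 of the CAS arrays, or array 1 of E2, was left out, the E2 call also without E2 array 2 or 3 and the SPI call without SPI array 2 or 3. Over the 23 alternatives tried, the adjusted p reached 0.105 for E2 and 0.119 for SPI.

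Idi1, the isomerase that makes the isoprenoid building blocks interconvertible, was the sterol gene with the largest fall in SPI+E2. It read 0.03, 0.27 and 0.27 in SPI, 0.19, 0.14 and 0.23 in E2, -0.45, -0.53 and -0.43 in SPI+E2 and -0.02, -0.12 and -0.09 in CAS. Each SPI+E2 array lay below every CAS array, and every SPI and E2 array above, array 1 of SPI by little. Idi1 was lower in SPI+E2 by -0.39 ± 0.06 on the log2 scale (adjusted p = 0.00233), and higher in SPI by 0.27 ± 0.06 (adjusted p = 0.0106) and in E2 by 0.26 ± 0.06 (adjusted p = 0.0164). The E2 call was lost without CAS array 2 or 3, or without E2 array 1 or 3 (adjusted p up to 0.0668 over the alternatives).

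Cyp51, the demethylase of lanosterol, rose in SPI and fell in SPI+E2. The array values were 0.25, 0.22 and 0.31 in SPI, 0.07, -0.01 and 0.11 in E2, -0.36, -0.30 and -0.30 in SPI+E2 and -0.04, -0.10 and -0.01 in CAS. SPI lay above every other group, SPI+E2 below every other group, and the E2 and CAS arrays overlapped. These are means of 2 probe sets, which against CAS gave 0.45 and 0.17 under SPI, with only the first past the threshold. Under SPI+E2 they gave -0.19 and -0.34, with only the second past it. Its differences from CAS were 0.31 ± 0.05 under SPI (adjusted p = 0.0005), 0.11 ± 0.05 under E2 (adjusted p = 0.166) and -0.27 ± 0.05 under SPI+E2 (adjusted p = 0.00304).

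Dhcr7, the last reductase before cholesterol, was the third sterol gene that fell in SPI+E2. Its values were 0.05, 0.20 and 0.31 in SPI, 0.01, 0.03 and -0.07 in E2, -0.26, -0.25 and -0.16 in SPI+E2 and 0.14, -0.01 and -0.05 in CAS. The SPI+E2 arrays were below all others, whereas those of SPI and E2 each overlapped CAS. The difference was -0.25 ± 0.07 in SPI+E2 (adjusted p = 0.0334), a call lost under 7 alternatives, among them leaving out CAS array 1 or 2, or SPI+E2 array 1 or 2 (adjusted p up to 0.127 over the alternatives). With SPI and E2 the values were 0.16 ± 0.07 and -0.04 ± 0.07, neither past the threshold.

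Another 5 sterol genes passed against CAS. Fdps, which makes farnesyl diphosphate, rose by 0.20 ± 0.05 in SPI and 0.21 ± 0.05 in E2 (adjusted p = 0.00683 and 0.00929), and Fdft1, squalene synthase, by 0.26 ± 0.05 and 0.23 ± 0.05 (adjusted p = 0.00195 and 0.00572). In SPI+E2 their differences were -0.09 ± 0.05 and -0.02 ± 0.05, and neither passed. The 2 probe sets of Fdft1 gave 0.11 and 0.40 in SPI and 0.19 and 0.26 in E2, with 1 of them called in each. Nsdhl, a sterol dehydrogenase that works with Msmo1, rose by 0.17 ± 0.06 in SPI and 0.20 ± 0.06 in E2, although neither of its probe sets passed alone. Lss, which closes squalene epoxide into lanosterol, rose by 0.20 ± 0.06 in SPI and had 0.19 ± 0.06 in E2 (adjusted p = 0.0612). The 2 probe sets of Lss gave 0.10 and 0.29 in SPI and 0.03 and 0.36 in E2, with 1 of them called in each. Mvd, the decarboxylase of the mevalonate steps, rose by 0.15 ± 0.05 in SPI alone among the groups against CAS, and by 0.22 ± 0.05 in SPI against E2 (adjusted p = 0.00711). The SPI calls of Lss, Mvd and Nsdhl had adjusted p of 0.0389, 0.0442 and 0.0381, and were lost under 10, 14 and 12 of 23 alternatives, in all 3 cases without any 1 of the CAS arrays or without SPI array 1 or 2. Over the alternatives their SPI values ran from 0.13 to 0.29, from 0.12 to 0.17 and from 0.14 to 0.23, with adjusted p up to 0.128, 0.138 and 0.143. The E2 call of Nsdhl was lost under 7, among them without CAS array 1 or 2 or E2 array 1 or 3 (adjusted p up to 0.123).

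Other steps did not pass the test. The kinases Mvk and Pmvk, the sterol isomerase Ebp and the cholesterol carrier Stard4 passed in none of the 3 comparisons with CAS, with differences between -0.03 and 0.11 in SPI. Hsd17b7, a reductase of sterol ketones, had 0.17 ± 0.11 under SPI, 0.15 ± 0.11 under E2 and -0.25 ± 0.11 under SPI+E2 without passing, and its 2 probe sets differed in sign in E2, at -0.05 and 0.35. Across the branch, 8 genes were higher in both SPI and E2 with SPI+E2 not past the threshold, 1 (Idi1) was higher in both and lower in SPI+E2, 1 (Cyp51) higher in SPI and lower in SPI+E2, and 5 passed nowhere against CAS.

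**Figure D2:**
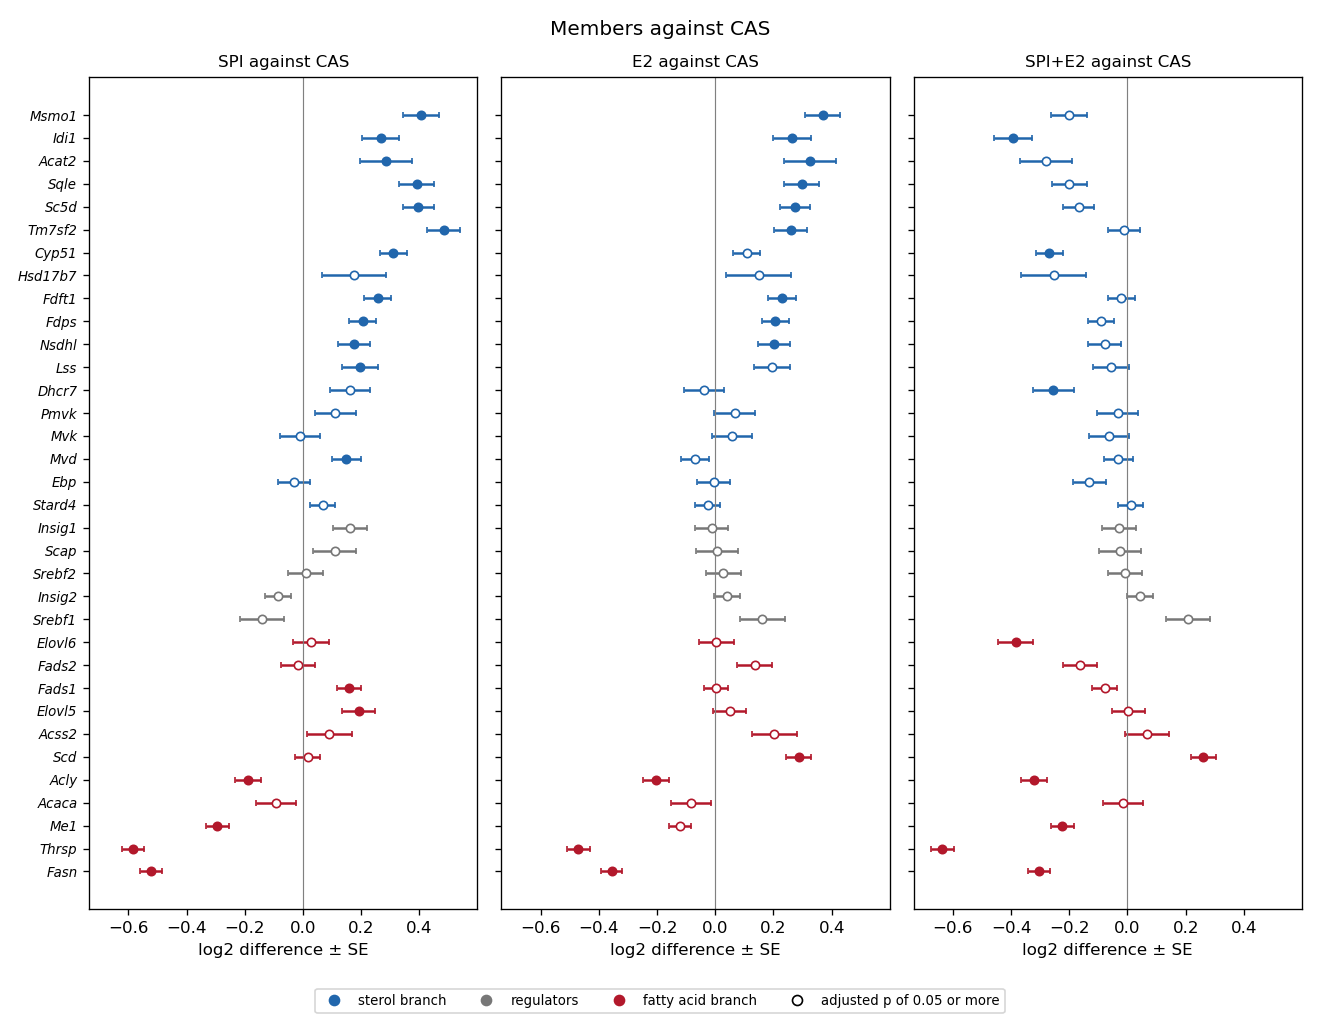
Log2 difference from CAS (x axis, ± SE) of each of the 34 genes (rows) in SPI, E2 and SPI+E2, coloured by branch, with filled points where the limma adjusted p was under 0.05. The filled sterol points lie right of 0 with SPI and E2 and left of it with SPI+E2, and the 5 regulators are open in all 3 panels.

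Direct comparison of SPI with E2 showed little in the sterol branch. In SPI, 3 of the 18 genes were higher than in E2 (Cyp51, Mvd and Tm7sf2) and 0 lower, where 24.1% of all genes were called and 11.1% were higher. The count was 5 without array 1 of SPI and 1 after quantile normalization. Arrays did not overlap for 6 of 18, against 39.1% of all genes. The median difference was 0.03, and -0.03 after quantile normalization of the arrays.

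Adding E2 to the SPI diet lowered the sterol genes, as did adding SPI to E2. In SPI+E2, 14 of 18 were lower than in SPI and 0 higher, with a median of -0.36, where 17.1% of all genes were called, 8% lower and 9.12% higher. Against E2, 12 of 18 were lower in SPI+E2 and 0 higher, with a median of -0.28, where 15.5% of all genes were called, 8.23% lower and 7.32% higher. Arrays did not overlap for 16 of 18 against SPI and 15 of 18 against E2, beside 30.5% and 36.4% of all genes. Idi1 had the largest differences, -0.66 ± 0.06 against SPI (adjusted p = 2.8e-05) and -0.66 ± 0.06 against E2 (adjusted p = 5.18e-05), which is 1.58-fold lower in both.

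The interaction term asks whether E2 did the same on both diets. It is the change with E2 on the SPI diet (SPI+E2 minus SPI) less the change with E2 on the casein diet (E2 minus CAS). It passed for 13 of the 18 sterol genes, all negative, and all 18 values were negative, with a median of -0.50 against 0.04 over all genes. Over all genes 15.8% passed, 7.72% were called negative, and 5504 of the 14217 values were negative. Msmo1 had the largest term, -0.98 ± 0.09 (adjusted p = 1.01e-05), followed by Idi1 at -0.92 ± 0.09 (adjusted p = 2.52e-05) and Acat2 at -0.89 ± 0.13 (adjusted p = 0.00049). Mvk, Pmvk, Mvd, Ebp and Stard4 did not pass. The 2 probe sets of Hsd17b7 gave -0.95 and -0.21 and those of Lss -0.60 and -0.30, with 1 called for each gene. The calls of Dhcr7 and Hsd17b7 were the least firm, lost without CAS array 2 or 3, E2 array 1 or SPI+E2 array 1, that of Dhcr7 also without E2 array 2 and that of Hsd17b7 without SPI+E2 array 2 (adjusted p up to 0.058 and 0.0699). The 4 groups enter this term and the comparisons above together, so these are not separate sources of evidence.

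**Figure D3:**
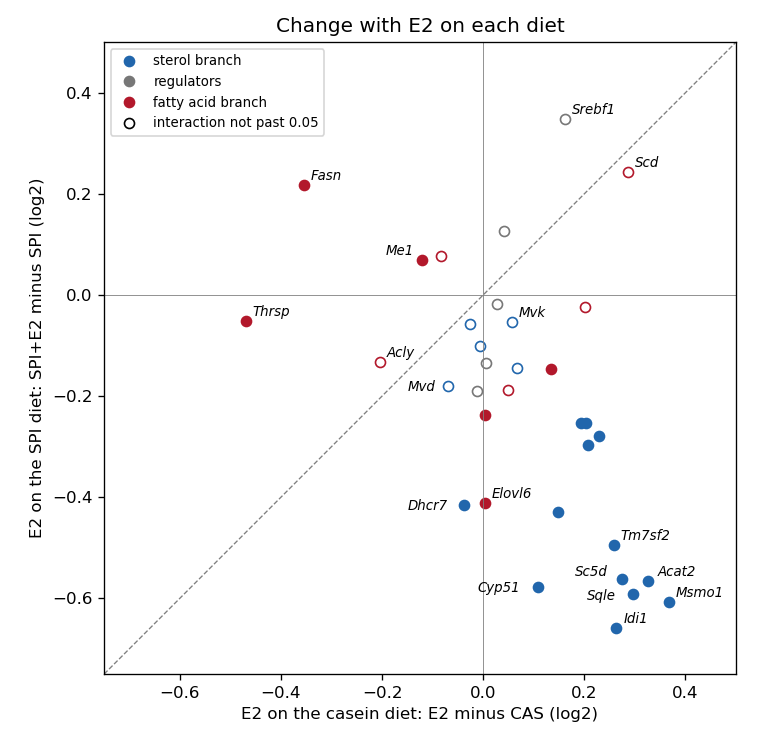
Change with E2 on the casein diet (x axis, E2 minus CAS, log2) and on the SPI diet (y axis, SPI+E2 minus SPI, log2) for each of the 34 genes, with the line of equal change dashed and filled points where the interaction passed. The 13 filled sterol points lie below the line, reaching -0.66 on the SPI diet for Idi1, and Fasn lies above it at 0.22.

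The promoters of 3 genes with the largest sterol interaction terms (Msmo1, Idi1 and Acat2) and of Acly and Thrsp, 2 fatty acid genes that fell in all 3 groups, are printed for comparison. Each line gives the 150 bases before the RefSeq start on GRCr8, on the gene's strand. Capitals mark CCAAT on either strand (ATTGG is its reverse complement), the motif of NF-Y, a factor that binds beside SREBPs in many lipid gene promoters.
Msmo1 (chr16:29746963-29747112, + strand): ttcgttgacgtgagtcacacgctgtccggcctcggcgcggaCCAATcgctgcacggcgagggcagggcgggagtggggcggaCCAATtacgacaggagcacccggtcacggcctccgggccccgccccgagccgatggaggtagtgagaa
Idi1 (chr17:66547525-66547674, - strand): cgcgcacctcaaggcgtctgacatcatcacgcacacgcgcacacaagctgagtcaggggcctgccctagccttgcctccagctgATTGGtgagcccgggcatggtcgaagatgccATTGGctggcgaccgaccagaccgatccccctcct
Acat2 (chr1:50100690-50100839, + strand): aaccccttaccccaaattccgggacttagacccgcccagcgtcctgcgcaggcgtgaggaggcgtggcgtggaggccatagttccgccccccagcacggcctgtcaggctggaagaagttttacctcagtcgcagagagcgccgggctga
Acly (chr10:85963632-85963781, - strand): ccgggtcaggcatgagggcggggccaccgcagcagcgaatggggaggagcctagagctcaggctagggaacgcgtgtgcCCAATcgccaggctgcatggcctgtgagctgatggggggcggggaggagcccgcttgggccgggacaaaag
Thrsp (chr1:161138965-161139114, - strand): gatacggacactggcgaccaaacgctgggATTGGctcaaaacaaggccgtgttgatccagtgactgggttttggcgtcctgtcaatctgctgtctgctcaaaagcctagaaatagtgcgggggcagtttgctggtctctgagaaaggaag
RefSeq promoters matched 27 of the 34 genes, and motifs were sought on both strands in the 250 bases before the start. CCAAT was present in 11 of 14 sterol promoters (78.6%), 4 of 5 regulators and 5 of 8 fatty acid promoters (62.5%), against 34.6% of the promoters of 13193 genes on the array. GGGCGG, the GC box, was in 12 of 14 sterol (85.7%), 4 of 5 regulator and 6 of 8 fatty acid promoters (75%), against 52.4%. The E-box CACGTG was in 1 of 14 sterol, 2 of 5 regulator and 1 of 8 fatty acid promoters, against 7.6%. TCACNCCAC, a core sterol regulatory element, was in 0 of 27, against 0.9%. At so low a share, 0 of 27 does not set these promoters apart from the others. The printed Acat2 window holds no CCAAT, whereas those of Msmo1 and Idi1 hold 2 each. These matches are descriptions of letters in a window.

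Of the regulators, 0 of 5 passed against CAS in SPI, E2 or SPI+E2, and 0 of 5 in the interaction. Over all genes, 25.4%, 14.2%, 12.9% and 15.8% passed, in the same order. With only 5 genes, counts of 0 do not set the regulators apart from those shares. Srebf2 read 0.11, 0.04 and -0.12 in SPI, 0.02, 0.09 and -0.03 in E2, 0.06, -0.03 and -0.06 in SPI+E2 and 0.01, 0.02 and -0.03 in CAS. Those arrays overlapped in every comparison, and the differences from CAS were 0.01 ± 0.06 under SPI, 0.03 ± 0.06 under E2 and -0.01 ± 0.06 under SPI+E2. The interval of its SPI difference at the 95% level ran from -0.12 to 0.14.

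Srebf1 gave -0.03, -0.37 and -0.27 under SPI, 0.00, 0.09 and 0.14 under E2, 0.06, 0.17 and 0.14 under SPI+E2 and -0.15, -0.04 and -0.06 in CAS. SPI arrays 2 and 3 were the lowest, while the E2 and SPI+E2 arrays lay above all CAS arrays. Its differences from CAS were -0.14 ± 0.08 under SPI (adjusted p = 0.207), 0.16 ± 0.08 under E2 (adjusted p = 0.213) and 0.21 ± 0.08 under SPI+E2 (adjusted p = 0.101). Without array 1 of SPI, the SPI difference was -0.24 and passed (adjusted p = 0.0154), as it did with array weights. Without that array the SPI+E2 difference (adjusted p = 0.0241) and the interaction of 0.28 (adjusted p = 0.034) passed as well. Srebf1 was lower under SPI than under E2, by -0.30 ± 0.08 (adjusted p = 0.0133), and higher under SPI+E2 than in SPI, by 0.35 ± 0.08 (adjusted p = 0.00837). Both calls were lost in the fit of the 2 groups alone and with the most variable probe set, and the SPI against E2 call also without SPI array 2 or E2 array 3 (adjusted p up to 0.116 and 0.15). The symbol covers both forms of SREBP1, which were not separated here.

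Insig1, itself a target of SREBPs, had 0.11, 0.11 and 0.25 in SPI, -0.02, -0.05 and 0.01 in E2, -0.13, 0.08 and -0.06 in SPI+E2 and 0.00, 0.00 and -0.01 in CAS. All SPI arrays were above all CAS arrays, and the other groups overlapped CAS. The SPI difference was 0.16 ± 0.06 (adjusted p = 0.0575), and against E2 it was 0.17 ± 0.06 (adjusted p = 0.0455), a call lost under 17 of 23 alternatives. In SPI+E2 it was lower than in SPI, by -0.19 ± 0.06 (adjusted p = 0.0389), a call lost under 16. With any 1 CAS array, SPI array 2 or 3, or any 1 E2 array left out, both were lost, with adjusted p up to 0.138 and 0.156 over the alternatives. The counts of 0 of 5 became 1 in SPI without array 1 of SPI, or array 1 or 2 of SPI+E2, 1 in SPI+E2 without array 1 of SPI, and 1 in the interaction without array 1 of SPI or array 2 of SPI+E2.

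Insig2 had -0.10, -0.07 and -0.07 in SPI, 0.06, 0.01 and 0.06 in E2, 0.13, -0.02 and 0.03 in SPI+E2 and -0.04, 0.02 and 0.04 in CAS. SPI was the lowest group in all 3 arrays, and E2 and SPI+E2 overlapped CAS. The values against CAS were -0.08 ± 0.04 under SPI, 0.04 ± 0.04 under E2 and 0.04 ± 0.04 under SPI+E2, none past the threshold. Scap, the escort of the SREBPs, read 0.12, 0.11 and -0.02 in SPI, -0.16, 0.07 and 0.00 in E2, -0.18, -0.03 and 0.02 in SPI+E2 and -0.06, 0.05 and -0.11 in CAS. Its arrays overlapped throughout, with differences from CAS of 0.11 ± 0.07 under SPI, 0.01 ± 0.07 under E2 and -0.03 ± 0.07 under SPI+E2.

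The fatty acid branch split in a way the sterol branch did not. In SPI, 2 of 11 genes were higher and 4 lower than in CAS, in E2 1 was higher and 3 lower, and in SPI+E2 1 was higher and 5 lower. The 2 higher in SPI became 0 without CAS array 2 or 3 and 1 without SPI array 1 or 2, and the 1 higher in E2 became 2 without SPI array 3. The share of all genes called lower was 14.6% under SPI, 7.23% under E2 and 7.06% under SPI+E2, and 5.8% were called higher in SPI+E2. Fasn, Acaca, Acly, Acss2 and Me1 make fatty acids or supply acetyl-CoA and NADPH, and Thrsp was grouped with them. These 6 genes had medians of -0.24 under SPI, -0.16 under E2 and -0.26 under SPI+E2. The 5 elongases and desaturases had medians of 0.03, 0.05 and -0.08 in the same order.

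Thrsp, a small protein tied to lipogenesis in liver and fat, fell the most. Its array values were -0.07, -0.11 and -0.06 in SPI, 0.06, -0.02 and 0.07 in E2, -0.13, -0.13 and -0.13 in SPI+E2 and 0.54, 0.49 and 0.50 in CAS. Every CAS array was above every other array, and the SPI+E2 arrays differed little among themselves. The differences from CAS were -0.58 ± 0.04 under SPI (adjusted p = 9.61e-07), -0.47 ± 0.04 under E2 (adjusted p = 6.55e-06) and -0.64 ± 0.04 under SPI+E2 (adjusted p = 2.44e-06). Its 3 probe sets ran from -0.62 to -0.53 under SPI, from -0.53 to -0.40 under E2 and from -0.74 to -0.52 under SPI+E2. At 1.55-fold in SPI+E2, Thrsp was the only member past 1.5-fold against CAS in any of the 3 groups.

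Fasn, fatty acid synthase, showed the same direction. It gave -0.23, -0.16 and -0.19 in SPI, -0.03, -0.05 and 0.00 in E2, 0.00, 0.03 and 0.04 in SPI+E2 and 0.35, 0.32 and 0.32 in CAS. The CAS arrays were the highest and the SPI arrays the lowest, with E2 and SPI+E2 between them. The differences were -0.52 ± 0.04 under SPI (adjusted p = 1.62e-06), -0.36 ± 0.04 under E2 (adjusted p = 3.87e-05) and -0.30 ± 0.04 under SPI+E2 (adjusted p = 0.000291). Adding E2 to the SPI diet raised Fasn by 0.22 ± 0.04 (adjusted p = 0.00151), whereas E2 lowered it on casein.

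Acly makes acetyl-CoA from citrate for both branches. Its values were 0.01, -0.05 and 0.05 in SPI, 0.04, -0.07 and -0.01 in E2, -0.11, -0.14 and -0.15 in SPI+E2 and 0.20, 0.14 and 0.23 in CAS. All CAS arrays were above all others, and SPI+E2 was the lowest group. The differences from CAS were -0.19 ± 0.04 under SPI (adjusted p = 0.00945), -0.20 ± 0.04 under E2 (adjusted p = 0.0087) and -0.32 ± 0.04 under SPI+E2 (adjusted p = 0.000802).

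Me1, the malic enzyme that yields NADPH, read -0.10, -0.19 and -0.15 under SPI, 0.05, 0.00 and 0.03 under E2, -0.10, -0.06 and -0.08 under SPI+E2 and 0.16, 0.10 and 0.17 in CAS. No group overlapped CAS, which was the highest. It fell by 0.29 ± 0.04 in SPI (adjusted p = 0.000213) and by 0.22 ± 0.04 in SPI+E2 (adjusted p = 0.00307), and had -0.12 ± 0.04 in E2 (adjusted p = 0.061). The carboxylase Acaca, which makes malonyl-CoA, had -0.09 ± 0.07, -0.08 ± 0.07 and -0.02 ± 0.07 in SPI, E2 and SPI+E2, and Acss2, which makes acetyl-CoA from acetate, 0.09 ± 0.08, 0.20 ± 0.08 and 0.07 ± 0.08. Neither passed in any comparison.

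Scd, stearoyl-CoA desaturase, rose with E2 on both diets. The arrays gave -0.14, -0.07 and -0.10 in SPI, 0.15, 0.15 and 0.20 in E2, 0.07, 0.17 and 0.18 in SPI+E2 and -0.14, -0.14 and -0.08 in CAS. E2 and SPI+E2 arrays lay above all SPI and CAS arrays, and SPI overlapped CAS. The difference from CAS was 0.29 ± 0.04 in E2 (adjusted p = 0.000592), 0.26 ± 0.04 in SPI+E2 (adjusted p = 0.00221) and 0.02 ± 0.04 in SPI (adjusted p = 0.818). Adding E2 to the SPI diet raised it by 0.24 ± 0.04 (adjusted p = 0.00197). The interaction was -0.04 ± 0.06 (adjusted p = 0.707).

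Elovl6, which lengthens palmitate, passed against CAS in SPI+E2 and not in the other groups. Its values were -0.02, 0.08 and 0.13 in SPI, -0.01, -0.01 and 0.14 in E2, -0.37, -0.42 and -0.25 in SPI+E2 and 0.06, -0.02 and 0.07 in CAS. The SPI+E2 arrays were below all others, and the other 3 groups overlapped. The SPI+E2 difference was -0.38 ± 0.06 (adjusted p = 0.00177), beside 0.03 ± 0.06 in SPI and 0.00 ± 0.06 in E2, and the interaction was -0.42 ± 0.09 (adjusted p = 0.00578). With the most variable probe set alone the interaction did not pass (adjusted p = 0.0508).

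The enzymes of polyunsaturated fatty acids changed less. Elovl5 rose by 0.19 ± 0.06 in SPI (adjusted p = 0.0277) and the desaturase Fads1 by 0.16 ± 0.04 (adjusted p = 0.0183), calls lost under 6 and 4 of 23 alternatives, in both cases without CAS array 2 or 3, and for Elovl5 also without SPI array 1 or 2 (adjusted p up to 0.352 and 0.0817). The desaturase Fads2 had -0.02 ± 0.06, 0.14 ± 0.06 and -0.16 ± 0.06 in SPI, E2 and SPI+E2, and none passed. Its interaction was -0.28 ± 0.08 (adjusted p = 0.042) and that of Fads1 -0.24 ± 0.06 (adjusted p = 0.0186).

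The interaction split the fatty acid branch as well. It was positive for Fasn at 0.57 ± 0.05 (adjusted p = 1.15e-05), Thrsp at 0.42 ± 0.05 (adjusted p = 0.000229) and Me1 at 0.19 ± 0.05 (adjusted p = 0.0347), and negative for Elovl6, Fads1 and Fads2, which makes 6 of 11. Over all genes 8.03% had a positive call. The Thrsp term was 0.19 and did not pass (adjusted p = 0.122) with its most variable probe set alone. The Me1 call was lost without any 1 array other than CAS 2 and SPI 1 (adjusted p up to 0.0861), the Fads1 call without CAS array 3 (0.0519), and the Fads2 call without any 1 array other than CAS 2, SPI 3 and E2 3 (up to 0.103). Among the direct comparisons, 1 fatty acid gene was higher (Fads1) and 3 lower (Fasn, Me1 and Scd) in SPI than in E2, where 11.1% of all genes were called higher and 13% lower. The 1 became 0 without SPI array 2 or 3 or E2 array 1 or 2. Against SPI, 2 fatty acid genes were higher in SPI+E2 (Fasn and Scd) and 3 lower (Elovl5, Elovl6 and Fads1). Against E2, 0 were higher and 3 lower (Thrsp, Elovl6 and Fads2). Over all genes, 9.12% were called higher and 8% lower against SPI, and 7.32% and 8.23% against E2. The Elovl5 call was lost under 15 of 23 alternatives and the Thrsp call under 2.

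By array, the mean over the 18 sterol genes ran from 0.109 to 0.197 in SPI, from 0.0753 to 0.120 in E2, from -0.237 to -0.145 in SPI+E2 and from -0.0749 to -0.0394 in CAS. These ranges overlapped only between SPI and E2. The mean over the 6 synthesis and supply genes ran from -0.0992 to -0.0425 in SPI, from -0.0177 to 0.0472 in E2, from -0.0682 to -0.0175 in SPI+E2 and from 0.178 to 0.205 in CAS. Here CAS stood alone above the others. The sterol mean minus the mean over all 11 fatty acid genes was 0.182 ± 0.0413 in SPI and 0.0594 ± 0.0141 in E2. It was -0.127 ± 0.0325 in SPI+E2 and -0.150 ± 0.00917 in CAS (SD, n = 3 each).

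**Figure D4:**
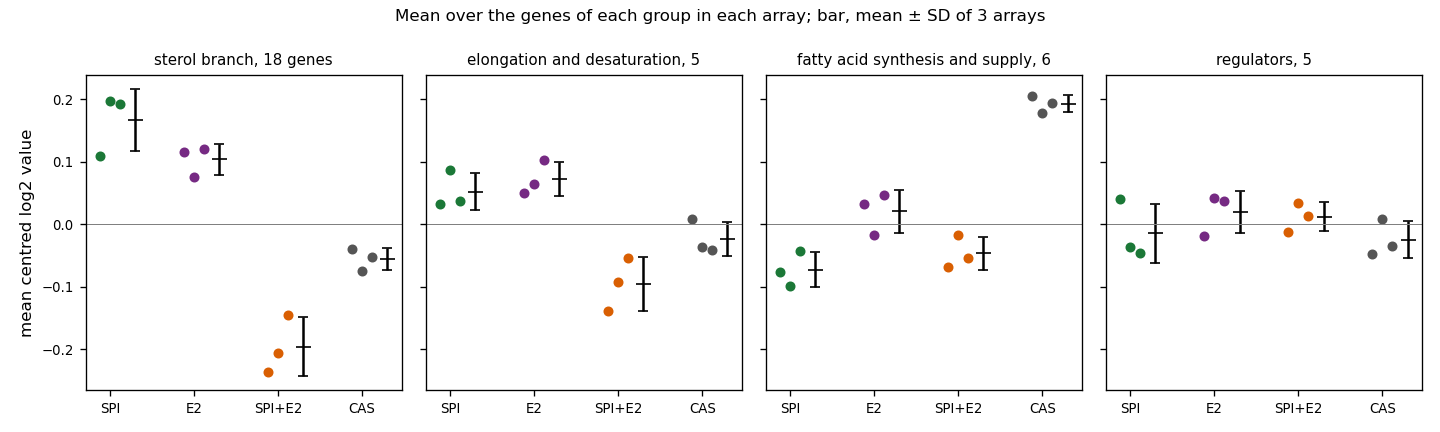
Mean centred log2 value (y axis) over the sterol genes, the elongases and desaturases, the synthesis and supply genes and the regulators in each array, by group; bars give the mean ± SD of 3 arrays. The sterol means are highest in SPI and E2 and lowest in SPI+E2, the synthesis means are highest in CAS, between 0.178 and 0.205, and the regulators' means overlap.

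Other genes of lipid handling, from lists that also name genes not analysed here, were tested in the same fit. Over all genes, 10.7% were called higher and 14.6% lower under SPI against CAS, 6.98% and 7.23% under E2, and 5.8% and 7.06% under SPI+E2. Of 5 measured genes of other sterol synthesis and uptake, 1 was higher and 1 lower under SPI, 1 and 1 under E2, and 0 and 1 under SPI+E2. The receptor Lrp8 was higher under SPI by 0.47, the sterol reductase Lbr was lower in SPI by -0.21 and under E2 by -0.41, and the scaffold Erg28 was lower under SPI+E2 by -0.21. Of 13 genes of efflux, esterification and storage, 3 were higher under SPI, 1 under E2 and 2 under SPI+E2, and 0 lower in any. Apoe was higher by 0.31 under SPI and 0.27 under E2, and Nr1h3, the oxysterol receptor LXR alpha, by 0.34 under SPI+E2.

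Sterol transport within the cell had 2 of 7 genes higher in SPI (Gramd1b by 0.25, Lipa by 0.23) and 0 called in E2 or SPI+E2. Of 6 genes of SREBP cleavage and turnover, 0 were higher in any group, and 2, 2 and 1 were lower in SPI, E2 and SPI+E2. Rnf139, a ligase that holds back SREBPs, was lower in all 3, by -0.24, -0.20 and -0.19, and the protease Mbtps2 was lower in SPI by -0.25. Of 8 genes of the non-sterol isoprenoid branch, 1 was higher and 2 lower under SPI, 1 and 1 under E2, and 0 and 0 under SPI+E2, with the transferase subunits Fnta higher by 0.23 and Pggt1b lower by -0.39 in SPI.

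Among 18 further genes of fatty acid and glycerolipid synthesis, 1 was higher and 7 lower under SPI, 2 and 2 under E2, and 0 and 2 under SPI+E2. Scd2, a desaturase related to Scd, differed from it and followed the sterol pattern, with 0.47 in SPI, 0.31 in E2, -0.06 in SPI+E2 and an interaction of -0.84. Agpat2, an acyltransferase of triglyceride synthesis, was lower in all 3 groups, by -0.40, -0.47 and -0.21. Mlxipl, the carbohydrate-responsive factor ChREBP, was -0.23 in SPI and 0.27 in E2.

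Markers of other cell types moved across the same groups. Of 11 measured Schwann cell and peripheral myelin markers of 16 listed, 11 were higher under SPI, 9 under E2 and 1 under SPI+E2, where 3 were lower, and the interaction was negative for 11 of 11. Their array means ran from 0.399 to 0.412 in SPI, from 0.248 to 0.276 in E2, from -0.306 to -0.286 in SPI+E2 and from -0.271 to -0.234 in CAS. That order of groups is the order of the sterol means, and its part in the sterol result was not tested. Pmp22, a myelin protein, was 0.85 higher under SPI and 0.99 under E2, and -0.12 under SPI+E2. Of 14 neuron markers, 13 were higher under SPI, 13 under E2 and 9 under SPI+E2, where the sterol genes had 0 higher. As in the sterol branch, most neuron markers fell when the treatments were combined. In SPI+E2, 13 of 14 were lower than in SPI and 13 of 14 lower than in E2. The interaction was negative for 13 of 14, with a median of -1.56. Of 11 central glia markers of 12 listed, 7 were higher in SPI, while in E2 4 were lower and 0 higher. Their part was not tested either.

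Among markers of fat cells, most of the calls against CAS were lower. Of 13 measured of 14 listed, 8 were lower under SPI, 5 lower and 1 higher under E2, and 4 lower and 1 higher under SPI+E2. Their array means ran from -0.177 to -0.104 in SPI, from -0.127 to -0.0884 in E2, from 0.0833 to 0.125 in SPI+E2 and from 0.156 to 0.174 in CAS. Ucp1, of brown fat, was lower in all 3 groups, by -0.98, -1.31 and -0.76, the lowest value of the list in each. In SPI+E2 every array mean of the list lay below every CAS array mean. By gene, 7 of 13 differences from CAS were positive there and 6 negative, with a median of 0.03 and a highest value of 0.45. The interaction was called higher for 8 of 13 and lower for 0. The part of fat cells in the fatty acid result was not tested.

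**Figure D5:**
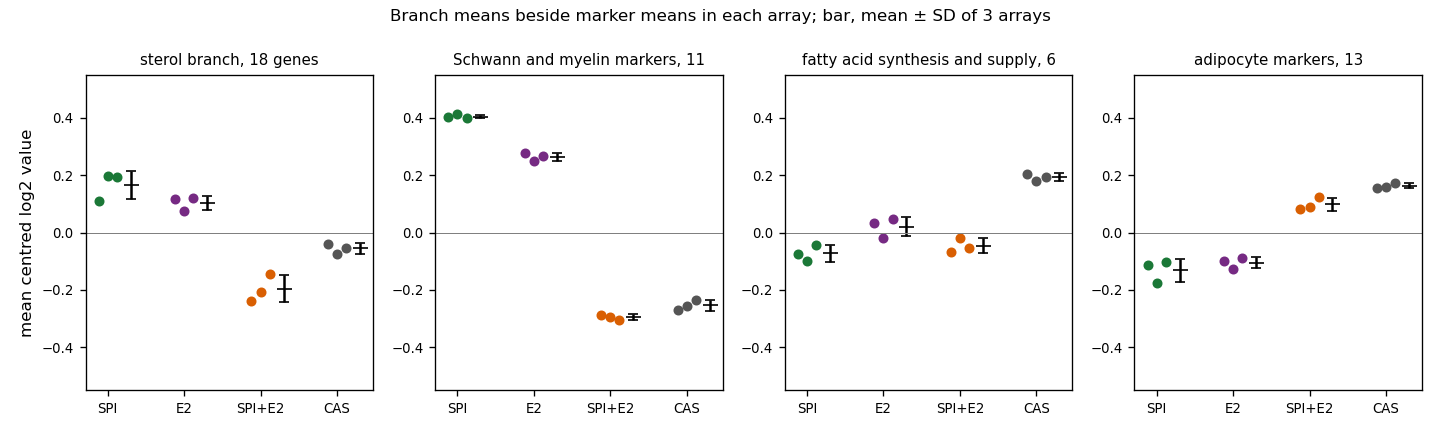
Mean centred log2 value (y axis) in each array, by group, of the sterol genes, the Schwann and myelin markers, the fatty acid synthesis and supply genes and the adipocyte markers; bars give the mean ± SD of 3 arrays. The myelin markers are high in SPI (0.399 to 0.412) and E2 and low in SPI+E2 and CAS, and the adipocyte markers separate SPI+E2 and CAS from SPI and E2.

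Other marker lists gave further context. Of 9 hepatocyte markers, 1 (albumin, Alb) was higher in SPI and 1 in SPI+E2, by 0.36 and 2.06, and 0 were called in E2. Cell division markers were lower in 10, 14 and 12 of 14 in SPI, E2 and SPI+E2, and erythroid markers in 7, 9 and 8 of 9. Chondrocyte markers were lower in 6, 4 and 6 of 7. Skeletal muscle markers were lower in 6 of 10 under SPI, in 0 under E2, and higher in 2 under SPI+E2. Osteoblast and osteocyte markers were lower in 3, 0 and 3 of 8, macrophage markers higher in 0, 0 and 2 of 7, and keratinocyte and sebaceous markers lower in 1, 1 and 0 of 5. Their part in the results was not tested.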

How the data were processed

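Tibia RNA of 12 pools, extracted after the marrow was aspirated, 3 pools per group, was hybridised to Affymetrix Rat 230 2.0 arrays. The deposited values are log2 values that the authors made with RMA (GCOS and RMA are named without a version in the submitters' processing notes) and then normalized per chip and per gene in GeneSpring 7.3. The table has 31099 probe sets. The 57 control probe sets were dropped, and 20826 of the other 31042 had 1 symbol. Values were averaged per gene (14217 genes, with no filter on low values). Group means were fitted by limma 3.58.1 (R 4.3.3, statmod 1.5.0) with two-sided moderated tests, with the Benjamini-Hochberg adjustment over all genes in each of 7 comparisons. The 8 residual degrees of freedom and the number of arrays limit the precision. The scripts were tested on simulated data. Members and lists were chosen with earlier results of these data known. Values in every array are given, within each branch, for the 3 members with the largest difference among those past the test in each comparison with CAS and in the interaction, and for the 5 regulators. Other genes come from the fixed lists, up to 4 per list. Alternatives were another normalization, scale, summary per gene, filter, test or variance model, and each array left out.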

Additional observations from a re-analysis of the deposited data

Results flagged for a closer look

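For 19 genes the change with E2 differed between the diets, by limma's interaction term (the change on the SPI diet less the change on the casein diet, log2, adjusted p under 0.05). In the sterol branch the term was negative for 13 genes, with values of Msmo1 -0.98, Idi1 -0.92, Acat2 -0.89, Sqle -0.89, Sc5d -0.84, Tm7sf2 -0.75, Cyp51 -0.69, Hsd17b7 -0.58, Fdft1 -0.51, Fdps -0.50, Nsdhl -0.46, Lss -0.45 and Dhcr7 -0.38. Msmo1 changed by -0.61 with E2 on the SPI diet and by 0.37 on the casein diet. Of these genes, Dhcr7 had negative values on both diets, -0.42 on the SPI diet and -0.04 on the casein diet. For Hsd17b7 and Lss, only 1 of 2 probe sets passed alone. In the fatty acid branch the term was positive for Fasn (0.57), Thrsp (0.42) and Me1 (0.19), and negative for Elovl6 (-0.42), Fads2 (-0.28) and Fads1 (-0.24). Fasn changed by 0.22 with E2 on the SPI diet and by -0.36 on the casein diet. Each group has 3 arrays, too few for a test of single outlying arrays.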

How the results depend on the processing

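A total of 23 alternatives were run, 12 of them each leaving out 1 array, and 0 of 238 values (34 genes, 7 comparisons) changed sign while called. The reading as natural logarithms rescaled the values and kept every p, so it could not change a call. Over single probe sets, a gene counted as called if any 1 of its probe sets passed. Of the sterol calls, 8 of 12 held under every alternative for SPI against CAS, 6 of 9 for E2, 2 of 3 for SPI+E2 and 11 of 13 for the interaction. In the fatty acid branch, 4 of 6, 4 of 4, 6 of 6 and 1 of 6 held. The cause of the values that moved was not tested. A trend in the variance was not run, and fits of 2 groups give no interaction. Signal over background cannot be read from centred values, so how dim probe sets limit these results is unknown.

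In fits of only the 2 groups compared, sterol branch genes lower numbered 5 for SPI+E2 against CAS, and fatty acid branch genes higher numbered 1 for SPI against CAS and 2 for E2 against CAS. There, regulators called numbered 1 for SPI+E2 against CAS, 0 for SPI against E2 and 0 for SPI+E2 against SPI. With array weights, sterol branch genes lower numbered 7 for SPI+E2 against CAS, and the fatty acid branch median was 0.0221 for SPI against CAS. There, fatty acid branch genes higher numbered 2 for E2 against CAS, and regulators called numbered 2 for SPI against CAS. After quantile normalization, sterol branch genes lower numbered 7 for SPI+E2 against CAS, and sterol branch genes higher numbered 1 for SPI against E2. There, the sterol branch median was -0.0303 for SPI against E2, and fatty acid branch genes higher numbered 0 for SPI against CAS and 0 for SPI against E2. There, the fatty acid branch median was -0.0969 for the interaction, and regulators called numbered 1 for SPI against E2 and 1 for SPI+E2 against SPI. There, the sterol less the fatty acid median was 0.0831 for SPI against E2. With the most variable probe set per gene, the sterol branch median was 0.28 for SPI against CAS and -0.59 for the interaction, and fatty acid branch genes higher numbered 1 for SPI against CAS. There, the fatty acid branch median was -0.13 for SPI+E2 against SPI, and fatty acid branch genes lower numbered 1 for the interaction. There, regulators called numbered 1 for SPI against E2 and 1 for SPI+E2 against SPI, and the sterol less the fatty acid median was 0.30 for SPI against CAS, 0.25 for E2 against CAS, -0.22 for SPI+E2 against E2 and -0.54 for the interaction. Over single probe sets, fatty acid branch genes higher numbered 2 for SPI against E2, and regulators called numbered 1 for SPI+E2 against CAS. With the values read as natural logarithms, the sterol branch median was 0.29 for SPI against CAS, 0.29 for E2 against CAS, -0.51 for SPI+E2 against SPI, -0.40 for SPI+E2 against E2 and -0.73 for the interaction, and the fatty acid branch median was -0.23 for SPI+E2 against CAS, -0.16 for SPI against E2 and -0.15 for SPI+E2 against E2. There, the sterol less the fatty acid median was 0.31 for SPI against CAS, 0.28 for E2 against CAS, 0.21 for SPI against E2, -0.44 for SPI+E2 against SPI, -0.25 for SPI+E2 against E2 and -0.67 for the interaction. With the pool number as a block (in case the numbers pair the samples), regulators called numbered 1 for SPI against E2. After median centring of each array, regulators called numbered 1 for SPI against E2. With unmoderated contrasts, regulators called numbered 1 for SPI+E2 against SPI. Without the least variable probe sets, the sterol branch median was -0.42 for SPI+E2 against SPI, and the sterol less the fatty acid median was -0.36 for SPI+E2 against SPI. Whether the pool numbers pair the samples cannot be settled from these values. Of 18 same-number pairs, 6 correlated over 0.1 (range -0.0809 to 0.26), and other pairs ranged from -0.243 to 0.226. Of 12 arrays, 7 correlated best with their own number. As a block, the number lost 4 of 104 calls and gained 2.

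With each array left out in turn, sterol branch genes lower ranged over 2 to 6 for SPI+E2 against CAS. Sterol branch genes higher ranged over 3 to 5 for SPI against E2. The sterol branch median ranged over 0.018 to 0.0968 for SPI against E2. Fatty acid branch genes higher ranged over 0 to 2 for SPI against CAS, 1 to 2 for E2 against CAS and 0 to 1 for SPI against E2. The fatty acid branch median ranged over -0.0689 to -0.00225 for SPI against CAS, -0.046 to 0.0157 for E2 against CAS, -0.20 to -0.13 for SPI+E2 against CAS, -0.14 to -0.0667 for SPI against E2 and -0.10 to -0.0418 for SPI+E2 against SPI. Fatty acid branch genes lower ranged over 1 to 4 for the interaction. Regulators called ranged over 0 to 1 for SPI against CAS, 0 to 1 for SPI+E2 against CAS, 0 to 3 for SPI against E2, 1 to 3 for SPI+E2 against SPI and 0 to 1 for the interaction. The sterol less the fatty acid median ranged over 0.21 to 0.27 for SPI against CAS, 0.011 to 0.0972 for SPI+E2 against CAS and -0.34 to -0.26 for SPI+E2 against SPI. Over all genes, SPI+E2 against CAS gave 468 higher and 602 lower without array 1 of CAS, 507 and 606 without array 3 of CAS, against 824 and 1004, and 632 lower without array 2 of SPI+E2. SPI+E2 against E2 gave 684 higher and 778 lower without array 1 of E2 and 753 lower without array 3, against 1040 and 1170. SPI+E2 against SPI gave 655 and 684 in the fit of those 2 groups alone, against 1297 and 1137.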
